A study of Mus musculus with 24 samples.

Results

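Genes of glycolysis, gluconeogenesis and glycogen metabolism were followed in mouse liver RNA, as 35 gene symbols out of the 46093 listed in each of the 2 count tables of the study. They cover glucose uptake and phosphorylation, the glycolytic steps, the enzymes that make new glucose, and the synthesis and breakdown of glycogen. All 35 were found in both tables. A filter on low counts kept 35 of them among 14873 genes in males and 34 among 11830 in females, where Hk2 had 0 to 10 counts per library and was not tested.

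The C57BL/6 mice either carried all their Cyp2b genes (wild type, WT) or lacked Cyp2b9, Cyp2b10 and Cyp2b13 (Cyp2b-null), cytochrome P450 genes of the liver. Mice of either genotype ate a normal chow diet (ND) or a high-fat diet (HFD) with 60% fat for 10 weeks. Sex, genotype and diet gave 8 groups of 3 libraries. The groups were WT ND, Cyp2b-null ND, WT HFD and Cyp2b-null HFD in females, and the same 4 in males. Neither an age nor a tie between library and animal is given in the sources used here, and if replicates shared an animal, a p-value would reflect technical spread only. Male RNA was extracted with an RNeasy Plus Universal kit and sequenced from TruSeq Total RNA libraries, female RNA with Trizol and NEB Next Ultra RNA libraries, so a sex difference and a kit difference cannot be told apart and each sex was analysed alone.

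The liver keeps blood glucose steady by storing it as glycogen after a meal and releasing it between meals. Glycogen synthase lengthens the glycogen chain and is switched on when protein phosphatase 1 removes its phosphates, while glycogen phosphorylase, switched on by phosphorylase kinase, shortens the chain. Targeting subunits bring the phosphatase to the glycogen particle, and in liver their transcripts are known to follow feeding, fasting and insulin. Gluconeogenesis bypasses the irreversible steps of glycolysis, and its enzymes are known to be induced in fasting and restrained by insulin.

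Female libraries held 2005120 to 2661836 counts and male libraries 8282510 to 20176050, which makes scarce transcripts less certain in females. Levels are given as CPM, normalised read counts that put every library on a common total with a correction for library composition. On that scale 3 counts correspond to 1.13 to 1.50 CPM in females and 0.136 to 0.401 CPM in males. In females Cyp2b13 had 565 to 1138 counts in each WT library and 0 in each Cyp2b-null library, which checks the titles from which the groups were taken, since in 6 female samples another label contradicts the title. In males Cyp2b13 lay between 0.937 and 4.78 CPM in both genotypes. Male Cyp2b10 on ND was lower in Cyp2b-null than in WT libraries without overlap (0.535 to 0.981 against 2.56 to 8.39 CPM) and overlapped on HFD. Male Cyp2b9 on ND went against the label, at 1.56 to 3.86 CPM in Cyp2b-null and 0.0865 to 0.342 CPM in WT libraries, and on HFD it overlapped at 1.83 to 7.57 and 4.67 to 36.1 CPM. These 3 transcripts did not settle the label in males, where "Cyp2b-null" means the libraries labelled so. The male library Cyp2b-null ND 1 stood apart: 32.0% of its counts were mitochondrial against 3.45% to 7.76% in the other 11, and its median rank correlation with them was 0.8002 where theirs were 0.9654 or more. In females WT ND 1 had the highest mitochondrial share, 14.0%. Values without WT ND 1 are given for the female ND differences of Gys2, Ppp1r3b, Pklr, Gapdh and Fbp1, and not for other single genes. Values without the male library are given beside most male differences on ND and beside the diet and interaction values that use it most. The liver markers Alb, Apoa1, Ttr, Apob, Serpina1a, Tat, Cps1 and Ass1 summed to 42423 CPM or more in every male library and 66256 or more in every female one.

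Per length of exon, the gluconeogenic genes Pck1 and Fbp1 were the most abundant of the set in WT mice on ND. In male WT mice on ND, Fbp1 (fructose bisphosphatase) had 632 ± 59.0 CPM per kb (SD, n = 3), Pck1 (cytosolic phosphoenolpyruvate carboxykinase) 530.4 ± 247 and G6pc (catalytic subunit of glucose-6-phosphatase) 498 ± 193. These 3 did not differ beyond their spread. Ldha (lactate dehydrogenase A) followed at 167 ± 21.9, then Pklr (liver pyruvate kinase) at 129 ± 24.8, Tpi1 (triose phosphate isomerase) at 120.1 ± 10.9 and Ugp2, which makes the UDP-glucose used for glycogen, at 114 ± 6.48. In female WT mice on ND the first 3 places per kb went to Pck1 (455 ± 331), Fbp1 (379 ± 198) and Ldha (143 ± 36.9), and G6pc stood at 112 ± 34.8. The hexokinases of non-hepatic tissues were at the bottom, Hk1 at 0.270 ± 0.0232 and Hk2 at 0.278 ± 0.179 CPM per kb in females, and 0.373 ± 0.0734 and 0.108 ± 0.00656 in males. Among the glycogen-targeting subunits of protein phosphatase 1, Ppp1r3b had 44.3 ± 10.4 CPM per kb in males and 36.5 ± 3.00 in females, Ppp1r3c 24.1 ± 16.6 and 31.9 ± 17.7, and Ppp1r3g only 1.92 ± 1.09 and 0.915 ± 0.673. The symbols Pgm1 and Pgm2 were exchanged between annotation releases and the files do not say which usage they follow, so no length or position is given for those 2.

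**Figure D1:**
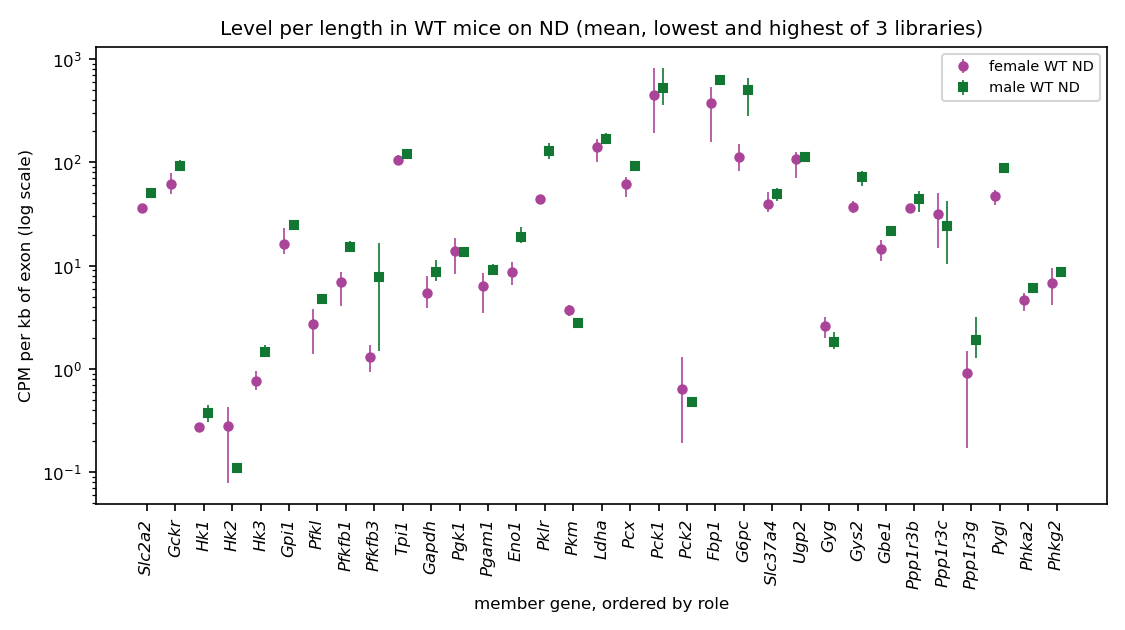
Level per length of exon of 33 member genes in WT mice on ND, in CPM per kb on a log scale, with the mean of 3 libraries and bars from the lowest to the highest library, for females (circles) and males (squares). Fbp1, Pck1 and G6pc sit highest in males at 498 to 632, and Hk1 and Hk2 lowest.

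Sequences shared with other genes limit some of these values. Of the 50-base words in the longest transcript of Gapdh, 82.5% also occur, on either strand, in other annotated genes. The shares were 72.2% for Eno1, 68.0% for Pgk1, 41.5% for Pgam1, 34.5% for Phkg2, 34.4% for Pkm, 25.3% for Gpi1, 23.2% for Pklr and 16.6% for Ldha. How reads in such stretches were counted is not given in the sources used here, so the values of these genes are uncertain. Exons of Phkg2 and Pklr overlap a gene on the opposite strand (Ccdc189 and Hcn3) over 21.9% and 22.0% of their length, and without strand such reads cannot be told apart. Each of these members shares words with 1 other gene, so the overlap and the shared words may be the same bases. Exons of Pkm overlap Gm49759 on the same strand over 15.3% of their length. The share of 50-base words found in other genes was 0.0% for Gys2, Pck1, G6pc, Ppp1r3c and Ppp1r3g and 0.4% for Ppp1r3b.

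The comparisons made in each sex were Cyp2b-null against WT on each diet, HFD against ND in each genotype, and the genotype by diet interaction, which is the genotype difference on HFD minus that on ND. A gene was called when the edgeR quasi-likelihood test gave an adjusted p (Benjamini-Hochberg over all genes tested) below 0.05. No member was called in any of the 10 comparisons. The members nearest to a call were in glycogen synthesis and its regulation, and those had the same sign in both sexes on ND: Gys2, the liver glycogen synthase, was measured higher and Ppp1r3b lower in Cyp2b-null than in WT mice. DESeq2, a second count test, called both of these genes on ND in each sex, among 72 of 12452 genes in females and 360 of 15157 in males.

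For Cyp2b-null against WT on ND in females, edgeR called 0.127% of all genes and 0 of 34 members, while DESeq2 called 72 of 12452 genes and 2 members. Of the members, 6 of 34 had an unadjusted p below 0.05, where 6.33% of all genes did, and the libraries of 6 members did not overlap, where 11.3% of all genes did. In the same comparison in males edgeR called 0.0134% of genes and 0 of 35 members, while DESeq2 called 360 of 15157 genes and 2 members. There 5 of 35 members had an unadjusted p below 0.05 against 18.6% of all genes, and 12 did not overlap against 22.8%. Without Cyp2b-null ND 1, 3 of 35 male members had an unadjusted p below 0.05 against 17.3% of all genes, and Gys2 was called among 7 genes in all. Without Cyp2b-null ND 2, edgeR called 724 genes and 4 members (Gckr, Gys2, Phka2 and Ppp1r3b), so the male calls turned on which Cyp2b-null ND library was kept. The female members' median log2 difference was 0.18 beside -0.02 for all genes, and 0.03 without WT ND 1, with 20 members higher and 14 lower. The male median was -0.06 beside 0.06, or -0.17 without Cyp2b-null ND 1.

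Gys2 (chr6:142422613-142473109 on the minus strand, GRCm38) lies in no other gene's exons. On ND its level was 95.9, 112 and 86.1 CPM in the female WT libraries and 165, 390.3 and 265 in the female Cyp2b-null libraries. All 3 Cyp2b-null libraries lay above all 3 WT libraries. The group means were 97.9 ± 13.0 and 273 ± 113 CPM (SD, n = 3), a log2 difference of 1.48 ± 0.29 (SE) with an edgeR adjusted p of 0.0695. In males on ND, Gys2 was at 221, 156 and 196 CPM in WT and at 687, 413 and 631 CPM in Cyp2b-null libraries. Again the groups did not overlap, and every Cyp2b-null library was well above the highest WT library. The male log2 difference was 1.60 ± 0.28 with an edgeR adjusted p of 0.122. Leaving out Cyp2b-null ND 1 gave 1.45 ± 0.23 and an edgeR adjusted p of 0.0496. In females, leaving out Cyp2b-null ND 1 gave 1.75 ± 0.27 and 0.0271, leaving out Cyp2b-null ND 2 gave 1.14 ± 0.28 and 0.416, and leaving out WT ND 1 gave 1.47 ± 0.34 and 0.213.

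On HFD the genotypes overlapped in Gys2. Females had 192, 129 and 130.3 CPM in WT and 175, 145 and 232 in Cyp2b-null libraries, a log2 difference of 0.29 with a 95% interval of -0.32 to 0.90. Males had 286, 374 and 428 CPM in WT and 301, 371 and 324 in Cyp2b-null libraries, a log2 difference of -0.13 with a 95% interval of -0.72 to 0.46. WT mice had more Gys2 on HFD than on ND without overlap in both sexes, by 0.62 ± 0.29 in females and 0.93 ± 0.27 in males, with edgeR adjusted p of 1 and 0.506. Cyp2b-null mice had less on HFD than on ND without overlap in males, at -0.80 ± 0.27 (edgeR adjusted p 0.434, or -0.65 ± 0.23 and 0.56 without Cyp2b-null ND 1), and with overlap in females, at -0.57 ± 0.28 (0.963). These comparisons share the ND libraries with the genotype comparison on ND, and WT ND was the group with the lowest Gys2 mean in each sex. The interaction for Gys2 was -1.19 ± 0.40 in females and -1.73 ± 0.38 in males, with edgeR adjusted p of 1 and 0.89. Without Cyp2b-null ND 1 the male value was -1.58 ± 0.31 (0.249).

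Ppp1r3b (chr8:35375739-35388139 on the plus strand) encodes the main glycogen-targeting subunit of protein phosphatase 1 in liver. In females on ND it was at 206, 236 and 239.8 CPM in WT and at 89.4, 49.9 and 92.6 CPM in Cyp2b-null libraries. Every Cyp2b-null library was below every WT library, and the means were 227 ± 18.6 and 77.3 ± 23.8 CPM. The log2 difference was -1.55 ± 0.34, with an edgeR adjusted p of 0.128, and -1.62 ± 0.38 with 0.292 when WT ND 1 was left out. Male levels on ND were 204, 291 and 331 CPM in WT and 62.8, 162 and 99.6 CPM in Cyp2b-null libraries, again without overlap. That difference was -1.35 ± 0.35 with an edgeR adjusted p of 0.185, and -1.08 ± 0.28 with 0.106 when Cyp2b-null ND 1 was left out.

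The order of the genotypes for Ppp1r3b was the other way round in males on HFD. WT libraries had 195, 303 and 206 CPM and Cyp2b-null libraries 533, 495 and 630.1 CPM, so the 2 groups did not overlap. The log2 difference was 1.23 ± 0.35 with an edgeR adjusted p of 1. Across all genes edgeR called 0% in this comparison and DESeq2 called 15 of 15708, and 0 of 35 members were called by edgeR or by DESeq2. Ppp1r3b was the 1 member with an unadjusted p below 0.05 there, against 2.12% of all genes, and the 1 member without overlap, against 8.27%. In females on HFD Ppp1r3b was at 60.2, 167 and 150.5 CPM in WT and at 166, 146 and 98.8 CPM in Cyp2b-null libraries, which overlapped, with a log2 difference of 0.12 and a 95% interval of -0.60 to 0.84.

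Set by diet, Ppp1r3b in male Cyp2b-null libraries went from 62.8, 162 and 99.6 CPM on ND to 533, 495 and 630.1 CPM on HFD. Its log2 difference of 2.35 ± 0.36 was the largest of any member in that comparison, with an edgeR adjusted p of 0.0863. Without Cyp2b-null ND 1 the difference was 2.08 ± 0.29 and the edgeR adjusted p 0.0178, in a fit that called 13 of 15139 genes. The comparison shares the Cyp2b-null ND libraries with the genotype comparison on ND. In female Cyp2b-null libraries the HFD difference was 0.82 ± 0.34 without overlap (edgeR adjusted p 0.963), and in WT it was -0.85 ± 0.34 without overlap in females (adjusted p 1) and -0.23 ± 0.34 with overlap in males (adjusted p 0.971). The interaction was 1.67 ± 0.48 in females and 2.58 ± 0.49 in males, with edgeR adjusted p of 1 and 0.602, and the male value was 2.31 ± 0.37 (0.153) without Cyp2b-null ND 1. DESeq2 called the male interaction for Ppp1r3b and Gys2, among 19 of 14056 genes, and neither in females. Phka2 was the other male member with an unadjusted p below 0.05 for the interaction, at -1.05 ± 0.44 (edgeR adjusted p 0.891), and at -0.55 ± 0.26 (0.649) without Cyp2b-null ND 1.

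**Figure D2:**
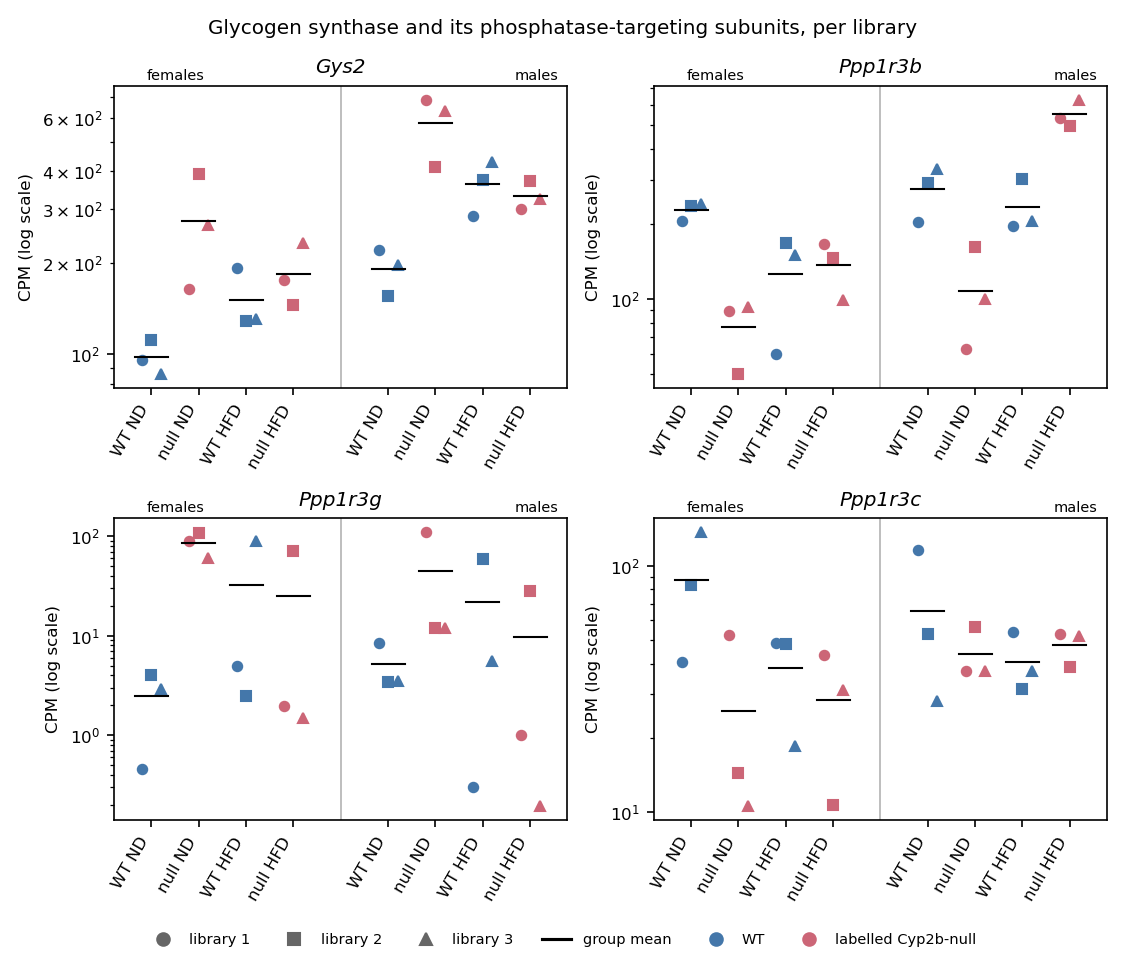
CPM per library on log scales for Gys2, Ppp1r3b, Ppp1r3g and Ppp1r3c in the 8 groups, with the shape of a point giving the library number, its colour the genotype and the line the group mean. On ND, Gys2 lies higher and Ppp1r3b lower in Cyp2b-null than in WT libraries of both sexes, and Ppp1r3g spreads from 0.192 to 111 CPM.

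Transcripts of the circadian clock were read in the same libraries. Arntl, a transcription factor at the core of that clock, was at 7.41, 19.0 and 9.66 CPM in female WT ND libraries and at 2.61, 1.35 and 1.62 CPM in female Cyp2b-null ND libraries. In males it was at 17.4, 13.6 and 4.53 CPM in WT ND and at 2.68, 2.04 and 1.70 CPM in Cyp2b-null ND libraries. Dbp, a clock-controlled transcription factor, had 25.9, 44.9 and 23.1 CPM in female WT ND and 191, 187 and 234 CPM in female Cyp2b-null ND libraries, and was higher in the latter by 2.71 ± 0.29 on the log2 scale (edgeR adjusted p 0.000499). Of 7 clock genes tested in females on ND, 4 were higher and 3 lower, and 2 (Dbp and Per3) were called. In males 5 of 7 were higher and 2 lower with none called. An unadjusted edgeR p below 0.05 was reached on ND by 3 higher and 2 lower clock genes in females, against 6.33% of all genes. In males it was reached by 4 higher and 2 lower ones, against 18.6%. On HFD Arntl lay between 0 and 4.58 CPM in females and between 1.77 and 4.90 CPM in males, in both genotypes. Of 7 clock genes in females on HFD, 4 were higher and 3 lower in Cyp2b-null mice (median log2 difference 0.56, beside 0.53 on ND). Among them 2 higher and 1 lower had an unadjusted edgeR p below 0.05, against 2.44% of all genes. In males on HFD 4 were higher and 3 lower (median 0.28), with 1 lower at such a p, against 2.12%. None was called on HFD in either sex. The hour of tissue collection is not given in the sources used here, and the part of clock phase in the Gys2 and Ppp1r3b differences was not tested.

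Cell markers were set beside the same groups. The 8 hepatocyte markers summed to between 91959.9 and 99887 CPM in female WT ND libraries and between 82143 and 119869.8 CPM in female Cyp2b-null ND libraries. In males they summed to 112119 to 143402 CPM in WT ND and 42423 to 85638 CPM in Cyp2b-null ND libraries, with 7 of 8 markers lower (median log2 difference -0.61). The 42423 CPM belonged to Cyp2b-null ND 1, and the other 2 libraries of that group had 84741 and 85638 CPM. All 4 lymphocyte markers were higher in male Cyp2b-null than WT mice on ND (median log2 difference 1.13), with sums of 2.03 to 17.0 CPM against 0.866 to 3.25 CPM, which overlapped, and no marker of either list was at 0 throughout. The highest lymphocyte sum belonged to Cyp2b-null ND 1. In bulk RNA fewer cells of a type and less RNA per cell cannot be told apart, and the part of these shifts in the male differences was not tested.

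Ppp1r3g (chr13:35958839-35970388 on the plus strand), a further glycogen-targeting subunit, varied most of all members between libraries of 1 group, with a median within-group coefficient of variation of 113% in females and 138% in males. In females on ND it had 0.463, 3.99 and 2.94 CPM in WT, from 1, 8 and 7 counts, and 90.7, 109 and 60.7 CPM in Cyp2b-null libraries. The groups did not overlap, and the log2 difference was 5.12 ± 1.85 with an edgeR adjusted p of 0.611. On HFD, however, single female libraries stood out: WT had 5.02, 2.50 and 89.0 CPM and Cyp2b-null 1.96, 71.2 and 1.51 CPM. So 5 of the 12 female libraries held 60.7 CPM or more and the other 7 held 5.02 CPM or less. Fitted on the 2 ND groups alone, Ppp1r3g had a log2 difference of 5.12 ± 0.45 and an edgeR adjusted p of 0.000705, where 21 of 10949 genes were called. That fit leaves the HFD libraries with 89.0 and 71.2 CPM out of the estimate of the spread. With 1 to 8 counts in WT, the gene passed its filter on low counts only through the Cyp2b-null libraries, where it was high. The p-value of that fit is therefore not taken as support for a genotype difference.

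Male Ppp1r3g was at 8.56, 3.46 and 3.50 CPM in WT ND and at 111, 12.1 and 12 CPM in Cyp2b-null ND libraries, which did not overlap. Its log2 difference was 3.10 ± 1.67 (edgeR adjusted p 0.326), and 1.21 ± 1.95 (0.78) without Cyp2b-null ND 1, which held the 111 CPM. On HFD male libraries had 0.301, 59.6 and 5.62 CPM in WT and 1.01, 28.2 and 0.192 CPM in Cyp2b-null, so the second library of each group was the high one.

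The libraries with high Ppp1r3g also held much Igfbp1, an insulin-like growth factor binding protein whose liver transcript is known to be induced by fasting and lowered by insulin. Female Igfbp1 was at 56.0, 166 and 58.8 CPM in WT ND, 242, 653 and 588 CPM in Cyp2b-null ND, 57.9, 85.4 and 653 CPM in WT HFD and 81.0, 325 and 32.1 CPM in Cyp2b-null HFD libraries. The 5 female libraries with 60.7 CPM or more of Ppp1r3g were the 5 with the most Igfbp1. In males Igfbp1 was highest in WT HFD 2 (468 CPM) and Cyp2b-null HFD 2 (630.4 CPM), the high Ppp1r3g libraries of those groups, but it was only 103 CPM in Cyp2b-null ND 1. Of 7 fasting-responsive genes tested in females on ND, 6 were higher in Cyp2b-null mice and none was called (median log2 difference 0.72). On HFD 5 of the 7 were lower in Cyp2b-null mice (median -0.37), and with HFD in WT mice 7 of 7 were higher (median 0.69, 4 with an unadjusted p below 0.05), again with none called. In males on ND 4 of 7 were higher and 3 lower in Cyp2b-null mice (median 0.21). Male values on HFD were higher for 3 and lower for 4 (median -0.07), and no male gene of the list had an unadjusted edgeR p below 0.05 between genotypes. Feeding state at collection is not given in the sources used here, and its part in the Ppp1r3g levels was not tested.

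Ppp1r3c (chr19:36731731-36736653 on the minus strand), the targeting subunit also known as PTG, was at 40.8, 83.3 and 137 CPM in female WT ND and at 52.1, 14.4 and 10.5 CPM in female Cyp2b-null ND libraries. The 2 groups overlapped through Cyp2b-null ND 1. The log2 difference was -1.76 ± 0.71 with an edgeR adjusted p of 0.70. Female HFD libraries had 48.7, 47.9 and 18.5 CPM in WT and 43.4, 10.6 and 31.3 CPM in Cyp2b-null, where the lowest of each group, WT HFD 3 and Cyp2b-null HFD 2, were the libraries with high Ppp1r3g. Male Ppp1r3c lay between 28.2 and 116 CPM and overlapped in all 4 comparisons.

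Binding sites of clock and cAMP-driven factors were looked up in the 250 bases before each RefSeq gene start (GRCm38.p6). For Ppp1r3g the RefSeq start lies 9067 bases inside the gene as GENCODE annotates it, so no region is printed. A cAMP response element core (TGACGT) begins 40 bases before the RefSeq start. It lies within the last 53 bases of the window, which GENCODE places in an exon of the gene. For Ppp1r3c the RefSeq start lies 49 bases past the GENCODE start. The 201 bases before the GENCODE start are shown because they hold an E-box (CACGTG, in capitals), the site of the core clock factors. The sequence reads 5′ to 3′ on the strand of the gene.
Ppp1r3c, chr19:36736654-36736854, minus strand: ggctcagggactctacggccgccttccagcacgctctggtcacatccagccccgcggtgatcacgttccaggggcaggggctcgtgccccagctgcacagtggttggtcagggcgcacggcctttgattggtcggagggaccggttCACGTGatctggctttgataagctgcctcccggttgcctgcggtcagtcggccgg
This E-box begins 104 bases before the RefSeq start. The motifs were searched on both strands in the table's promoters, of which a gene can have several. A gene was counted once where any of its promoters held the motif, over 27018 mouse genes and 33 of the 35 members. TGACGT was found for 7.3% of all genes and for 6 of 33 members (Hk2, Pfkfb3, Ldha, Pck1, Slc37a4 and Ppp1r3g). CACGTG, whose reverse complement is itself, was found for 6.86% of all and for 4 members (Pfkfb3, Ldha, Pcx and Ppp1r3c). AGGTCA, the core of sites of the clock receptors ROR and REV-ERB, for 15.8% of all and 8 members. The D-box TTATGTAA, bound by Dbp, was found for 0.977% of all genes and no member, and the FOXO core TGTTTAC for 3.54% and likewise no member. A match is a description of letters and not a measured site. The table held no promoter for Gys2 and Ppp1r3b.

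The other glycogen synthesis genes lay closer together between the groups. Ugp2 had 218, 381 and 388 CPM in female WT ND and 413, 324 and 304 CPM in female Cyp2b-null ND libraries, a log2 difference of 0.08 with a 95% interval of -0.41 to 0.57. Gbe1, the branching enzyme, differed by -0.01 ± 0.32 and Gyg, the glycogenin primer, by -0.19 ± 0.45 in the same comparison, and both overlapped. Pgm1 and Pgm2, phosphoglucomutases, interconvert glucose phosphates on the way to glycogen. In females on HFD both did not overlap and were higher in Cyp2b-null libraries. Pgm2 had 188, 194 and 205 CPM in WT and 233, 227 and 238 CPM in Cyp2b-null libraries, a log2 difference of 0.25 ± 0.17 (edgeR adjusted p 1). Pgm1 had 4.25, 4.58 and 5.77 CPM in WT and 5.87, 6.48 and 6.41 CPM in Cyp2b-null libraries, a log2 difference of 0.36 ± 0.44 (adjusted p 1). Its counts were only 11 to 14 in WT and 14 to 17 in Cyp2b-null libraries. Pgm1 in female Cyp2b-null mice was also higher on HFD than on ND without overlap (4.34, 5.39 and 2.83 CPM on ND), at 0.58 ± 0.45 (adjusted p 0.963). With Gapdh, Pgm1 and Pgm2 were the 3 of 34 members without overlap between genotypes on HFD, against 6.97% of all genes. edgeR called 0 of 34 members and 0.0169% of all genes there, none had an unadjusted p below 0.05, against 2.44% of all genes, and DESeq2 called 0 members.

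In male WT mice, HFD against ND gave 11 of 35 members without overlap, where 23% of all genes did not overlap. edgeR called 0% of genes and no member, and 1 member had an unadjusted p below 0.05 against 6.49% of all genes. DESeq2 called 69 of 15157 genes and no member. Hepatocyte markers were lower on HFD for 7 of 8 genes (median log2 difference -0.45, 5 of them without overlap), with sums of 87559 to 106941 CPM against 112119 to 143402 on ND and none at 0. Fasting-responsive genes were higher for 6 of 7 (median 0.67, 3 with an unadjusted p below 0.05). The part of either list in the diet differences that follow was not tested. Of the 11 members without overlap, 4 were higher and 7 lower on HFD. The lower ones included the glycogen breakdown genes Pygl (374 to 552 CPM on HFD, 575 to 628 on ND) and Phkg2 (21.6 to 28.5 CPM on HFD, 33.3 to 35.7 on ND). Among the higher ones were the glycogen synthesis genes Gys2, Gbe1 and Ugp2. Gbe1 was at 107, 119 and 123 CPM on ND and at 134, 225 and 138 CPM on HFD, a log2 difference of 0.51 ± 0.32 (edgeR adjusted p 0.865). Ugp2 was at 353, 329 and 369 CPM on ND and at 492, 631 and 445 CPM on HFD, a log2 difference of 0.58 ± 0.43 (adjusted p 0.888). In both genes WT HFD 2 was the highest library. Slc2a2, the glucose transporter of hepatocytes, was also higher without overlap, with a log2 difference of 0.45 ± 0.42 (adjusted p 0.932).

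Of the glycogen breakdown genes, Pygl is the liver glycogen phosphorylase and Phka2 and Phkg2 are subunits of the kinase that activates it. Pygl in females on ND was at 269, 372 and 338 CPM in WT and at 445, 277 and 307 CPM in Cyp2b-null libraries, which overlapped, with a 95% interval of -0.42 to 0.57 for the log2 difference. In males on ND Pygl had 614, 628 and 575 CPM in WT and 170.2, 519 and 434 CPM in Cyp2b-null libraries, without overlap, at -0.69 ± 0.35 (edgeR adjusted p 0.303), and at -0.35 ± 0.20 (0.389) without Cyp2b-null ND 1. Male Phka2 was at 36.3, 40.3 and 32.9 CPM in WT ND and at 107, 40.6 and 55.1 CPM in Cyp2b-null ND libraries. These did not overlap by a narrow margin, and the log2 difference of 0.89 ± 0.31 (adjusted p 0.213) was 0.39 ± 0.19 (0.311) without Cyp2b-null ND 1. Phkg2 in male Cyp2b-null mice had 137, 24.7 and 36.0 CPM on ND and 22.3, 23.5 and 24.3 CPM on HFD, without overlap, with a log2 difference of -1.49 ± 0.49 (adjusted p 0.434), and of -0.37 ± 0.18 (0.798) without Cyp2b-null ND 1, the library with 137 CPM.

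**Figure D3:**
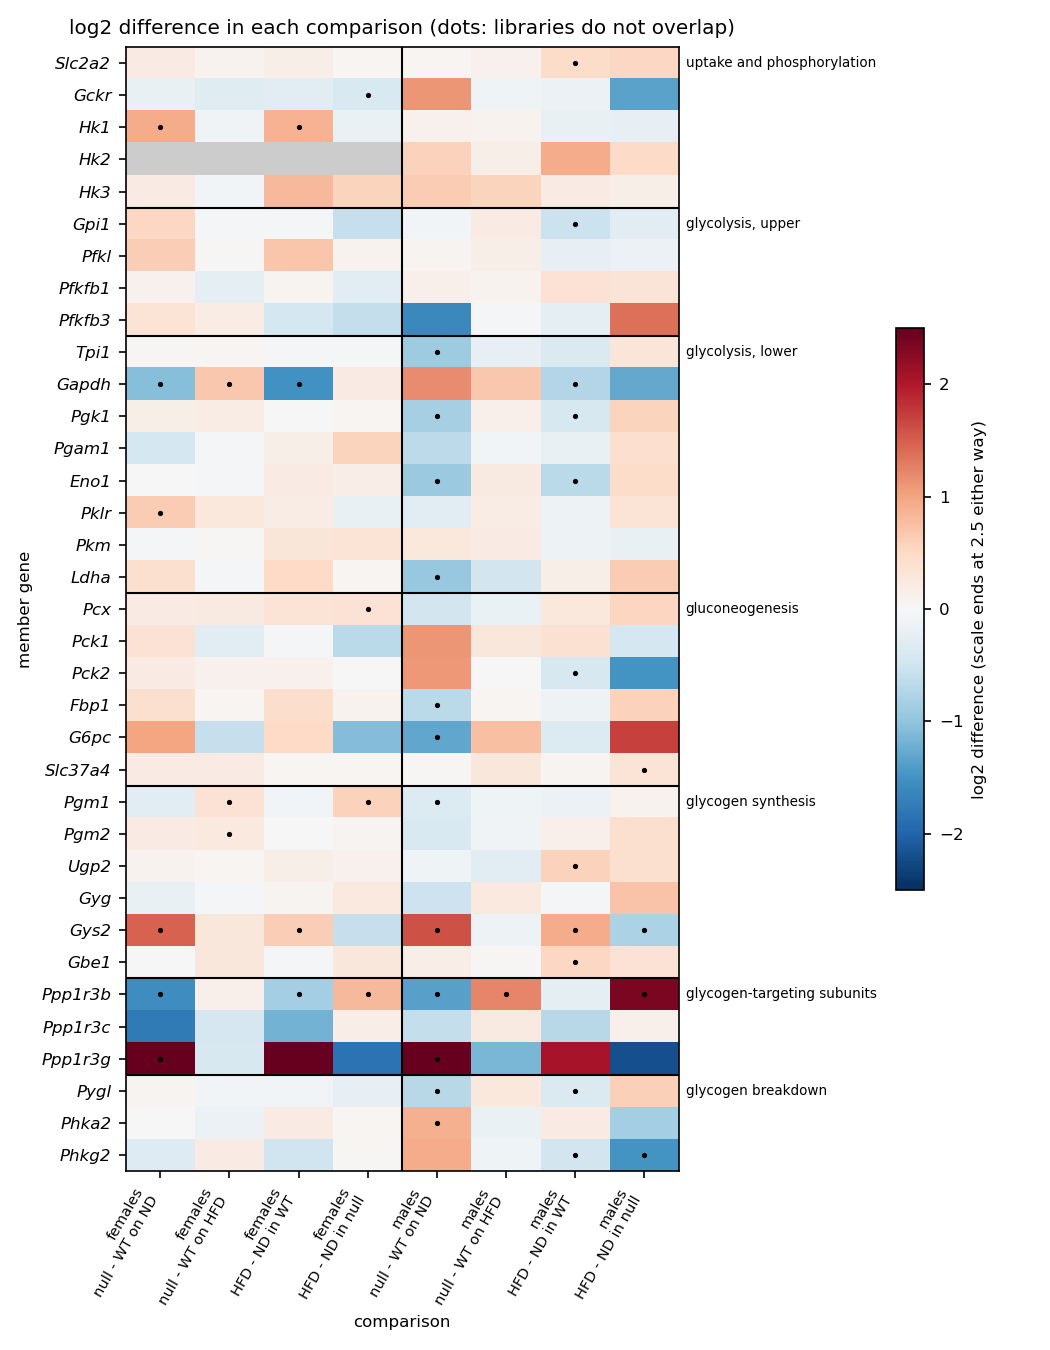
Fitted log2 differences of the 35 members (rows, grouped by role) in 8 comparisons (columns), red for higher and blue for lower, with a dot where the libraries of the 2 groups do not overlap and grey where Hk2 was not tested in females. Gys2 and Ppp1r3b carry dots on ND in both sexes, and no member was called by edgeR.

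Gluconeogenic transcripts spread widely within groups. Median within-group coefficients of variation were 65.2% for G6pc and 61.1% for Pck1 in females, and 71.8% and 45.5% in males, where Slc37a4, the transporter that feeds glucose-6-phosphatase, had 16.6% and 13.5%. G6pc in males on ND was at 1574, 1354 and 680.5 CPM in WT and at 551, 655 and 270.0 CPM in Cyp2b-null libraries. The groups did not overlap, and the log2 difference was -1.29 ± 0.82 with an edgeR adjusted p of 0.395, and -1.38 ± 1.14 (0.559) without Cyp2b-null ND 1. On HFD 1 library of each male group was far above the other 2: WT had 345, 2079.7 and 433 CPM and Cyp2b-null 399, 3597 and 824 CPM. These are WT HFD 2 and Cyp2b-null HFD 2, which also had the most Ppp1r3g and Igfbp1 in their groups.

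Female G6pc was at 201, 364 and 245 CPM in WT ND, 363, 441 and 807 CPM in Cyp2b-null ND, 161, 219.9 and 753 CPM in WT HFD and 59.5, 624 and 77.3 CPM in Cyp2b-null HFD libraries. WT HFD 3 and Cyp2b-null HFD 2 stood highest in their groups, as they did for Ppp1r3g. The genotype difference was 0.99 ± 0.91 on ND and -0.58 ± 0.91 on HFD, with edgeR adjusted p of 0.947 and 1. Pck1 on ND was at 659, 2834 and 1189 CPM in female WT and at 1241, 2867 and 1949 CPM in female Cyp2b-null libraries, which overlapped. Male Pck1 on ND was at 2792, 1242 and 1423 CPM in WT and at 5605, 2141 and 3939 CPM in Cyp2b-null libraries, with a log2 difference of 1.10 ± 0.46 (adjusted p 0.244) and overlap through WT ND 1, and of 0.74 ± 0.43 (0.388) without Cyp2b-null ND 1. In that comparison Pck1 and G6pc, which act at the start and end of the pathway, had fitted differences of opposite sign.

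Both genes have long been studied as targets of cAMP and insulin, and the bases before their starts are shown for that reason. The RefSeq start lies 25 bases past the GENCODE start in Pck1 and 155 bases past it in G6pc. Each sequence (GRCm38.p6) runs from 250 bases before the RefSeq start to the GENCODE start, 5′ to 3′ on the strand of the gene. Capitals mark the core TGACGT in Pck1 (read here as ACGTCA, its reverse complement) and the insulin response core TGTTTTG in G6pc.
Pck1, chr2:173152823-173153047, plus strand: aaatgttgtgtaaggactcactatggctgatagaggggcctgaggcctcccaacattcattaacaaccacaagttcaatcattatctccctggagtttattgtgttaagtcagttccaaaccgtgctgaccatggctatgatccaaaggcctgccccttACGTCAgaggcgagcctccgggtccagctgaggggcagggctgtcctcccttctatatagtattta
G6pc, chr11:101367466-101367560, plus strand: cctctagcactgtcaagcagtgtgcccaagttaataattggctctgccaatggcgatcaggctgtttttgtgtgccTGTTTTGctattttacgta
The Pck1 match begins 91 bases and the G6pc match 174 bases before the RefSeq start. An AGGTCA match of G6pc, 54 bases before the RefSeq start, lies past the GENCODE start and is not printed. TGTTTTG was found for 6.38% of all genes and for 3 of 33 members (Gckr, Pck2 and G6pc).

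Fbp1 and Pcx (pyruvate carboxylase, which starts gluconeogenesis from pyruvate) varied less. In females on ND Fbp1 was at 269, 917 and 749.5 CPM in WT and at 1121, 858 and 582 CPM in Cyp2b-null libraries, and the lowest was WT ND 1. The difference without it was 0.03 ± 0.33 (edgeR adjusted p 0.982). Male Fbp1 on ND was at 1191, 1027 and 1008 CPM in WT and at 201, 966 and 861 CPM in Cyp2b-null libraries, without overlap, at -0.67 ± 0.45 (edgeR adjusted p 0.415). The 201 CPM belonged to Cyp2b-null ND 1, and without it the difference was -0.23 ± 0.21 (0.582). Pcx in female Cyp2b-null mice had 333, 346 and 332 CPM on ND and 454, 442 and 413 CPM on HFD, without overlap, with a log2 difference of 0.37 ± 0.20 (adjusted p 0.963). Slc37a4 in male Cyp2b-null mice had 138, 140.0 and 149 CPM on ND and 168, 165 and 206 CPM on HFD, without overlap, at 0.34 ± 0.22 (adjusted p 0.541), and at 0.32 ± 0.19 (0.888) without Cyp2b-null ND 1. Pck2, the mitochondrial carboxykinase, stayed at 16.7 CPM or less in every library.

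**Figure D4:**
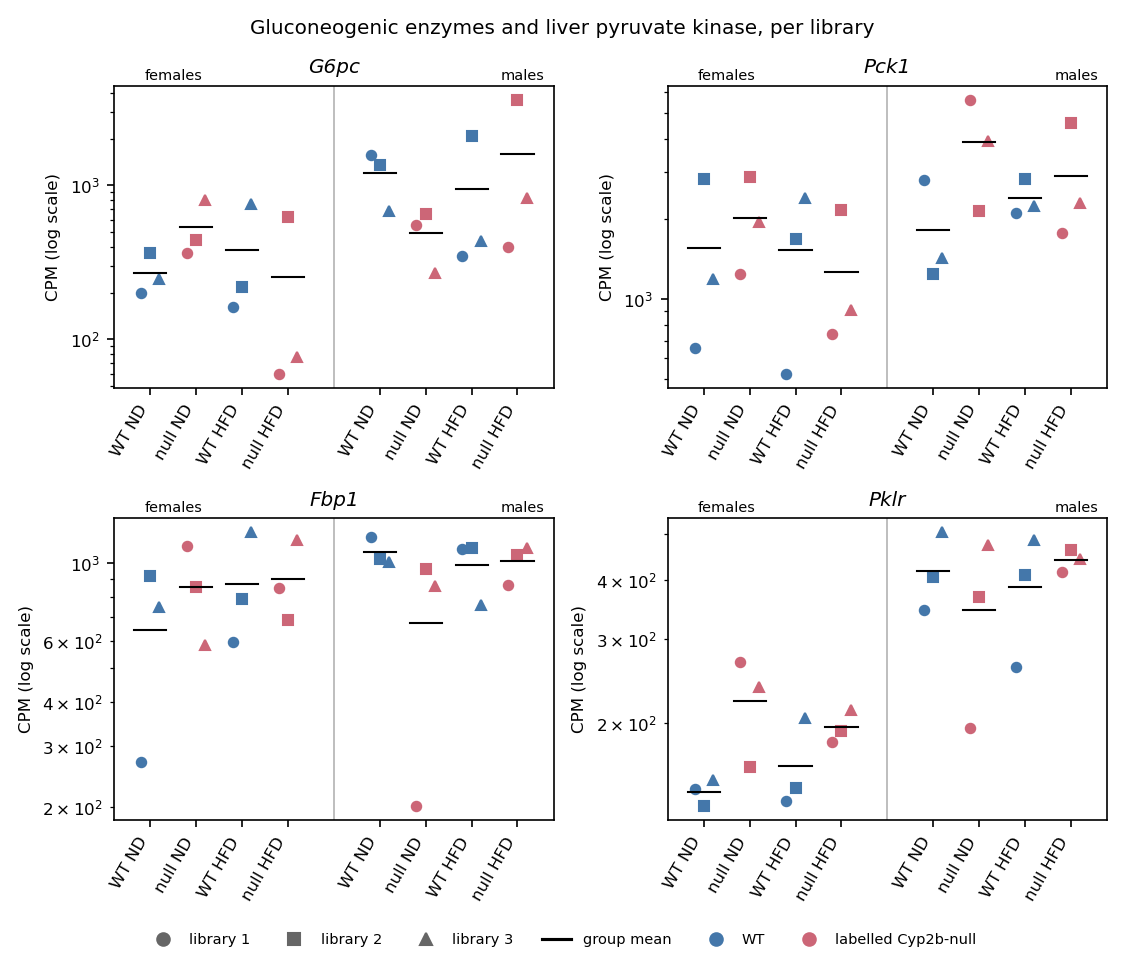
CPM per library on log scales for G6pc, Pck1, Fbp1 and Pklr in the 8 groups, with the shape of a point giving the library number, its colour the genotype and the line the group mean. Single libraries of the HFD groups carry G6pc, up to 3597 CPM in male Cyp2b-null HFD 2, and Pklr in female Cyp2b-null ND libraries lies above WT ND.

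The other counts for diet were as follows. For HFD against ND in female WT mice edgeR called 0.0169% of all genes and 0 of 34 members, and DESeq2 called 17 of 15733 genes and 0 of 35 members. There 3 members had an unadjusted edgeR p below 0.05 against 3.48% of all genes, and 4 did not overlap against 7.86%. In female Cyp2b-null mice edgeR called 0% of genes and no member, DESeq2 called no member, 1 member (Ppp1r3b) had an unadjusted p below 0.05 against 4.8% and 4 did not overlap against 11.2%. Macrophage markers were higher on HFD there for 6 of 6 genes (median log2 difference 0.78, 4 with an unadjusted p below 0.05 and 3 without overlap), with sums of 277 to 415 CPM against 133 to 254 on ND and none at 0. Hepatocyte markers were lower for 6 of 8 (median -0.36), and the part of either list in the differences of Ppp1r3b, Pcx, Gckr and Pgm1 was not tested. In male Cyp2b-null mice edgeR called 0% of genes and no member and DESeq2 called 1 (Ppp1r3b), among 110 of 13507 genes. There 6 of 35 members had an unadjusted p below 0.05 against 11.1% of all genes, and 4 did not overlap against 12.1%. Without Cyp2b-null ND 1 that first count was 2 of 35 against 6.46%. For the interaction edgeR called 0% of genes and no member in either sex, with 4 of 34 female members at an unadjusted p below 0.05 against 2.89% and 3 of 35 male members against 4.65%. DESeq2 called 0 members and 10 of 16672 genes in females, and 2 members and 19 of 14056 genes in males.

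Among the glycolytic genes, Pklr makes pyruvate in the last step of hepatic glycolysis. In females on ND it was at 145, 133 and 151 CPM in WT and at 268, 161 and 238 CPM in Cyp2b-null libraries. The groups did not overlap, and the log2 difference was 0.64 ± 0.22 with an edgeR adjusted p of 0.522, and 0.64 ± 0.25 (0.573) without WT ND 1. Female Pklr on HFD overlapped, at 137, 146 and 204 CPM in WT and 182, 192 and 212 CPM in Cyp2b-null libraries. In males on ND the levels were 346, 405 and 505 CPM in WT and 195, 367 and 473 CPM in Cyp2b-null libraries, also overlapping, with a 95% interval of -1.01 to 0.45.

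Gapdh, the dehydrogenase often taken as a reference gene, was low here at 5.45 ± 2.10 CPM per kb in female WT ND libraries, and 82.5% of its 50-base words are shared. It was at 16.2, 32.4 and 18.9 CPM in female WT ND, 8.68, 8.53 and 15.0 CPM in Cyp2b-null ND, 10.8, 7.91 and 4.53 CPM in WT HFD and 11.0, 13.0 and 13.6 CPM in Cyp2b-null HFD libraries. WT ND lay above both groups that share 1 factor with it. The log2 difference was -1.06 ± 0.35 for genotype on ND and -1.52 ± 0.36 for HFD in WT, with edgeR adjusted p of 0.49 and 0.396, and these comparisons share the WT ND libraries. Without WT ND 1 they were -1.24 ± 0.37 (0.415) and -1.71 ± 0.38 (0.381). On HFD the genotypes did not overlap either, at 0.68 ± 0.37 (adjusted p 1), and the interaction was 1.73 ± 0.51 (adjusted p 1). Which of its copies the reads came from was not tested.

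In females on ND all 4 upper glycolytic genes tested overlapped between genotypes. Gpi1 (glucose phosphate isomerase) differed by 0.51 with a 95% interval of -0.10 to 1.11 and Pfkl, the liver phosphofructokinase, by 0.62 with -0.08 to 1.32. Pfkfb1 differed by 0.10 and Pfkfb3 by 0.34, so all 4 fitted differences were above 0. The lower glycolytic genes Tpi1 and Pgk1 and the transporter Slc2a2 overlapped as well. Tpi1 differed by 0.03 on ND with a 95% interval of -0.35 to 0.42, Pgk1 (phosphoglycerate kinase) by 0.15 with -0.41 to 0.72, and Slc2a2 by 0.21 with -0.22 to 0.63. Pgm2, Slc2a2 and Tpi1 had the lowest median within-group coefficients of variation of the members in females, at 6.88%, 7.28% and 10.2%. Their group means differed by at most 1.20-fold, 1.19-fold and 1.05-fold. Hk1 on ND was at 2.32, 2.50 and 2.10 CPM in WT and at 2.61, 5.84 and 4.85 CPM in Cyp2b-null libraries, without overlap, at 0.93 ± 0.55 (edgeR adjusted p 0.84). These values rest on 5 counts in each WT library and 6 to 13 in the Cyp2b-null libraries, so the lack of overlap is weak. On HFD WT libraries had 2.70, 3.33 and 6.60 CPM of Hk1, also above WT ND, at 0.86 ± 0.55 (adjusted p 1). Macrophage markers were higher with HFD in female WT mice for 6 of 6 genes (median log2 difference 0.39, summed level 235 to 422 CPM against 148 to 299) and lower for 6 of 6 in Cyp2b-null ND (median -0.22, 133 to 254 CPM), with none at 0 throughout. Their part in Hk1 was not tested. Gckr, the protein that holds glucokinase in the nucleus, had 231, 249 and 233 CPM in female Cyp2b-null ND and 166, 200.3 and 182 CPM in Cyp2b-null HFD libraries, without overlap, at -0.38 ± 0.21 (adjusted p 0.963).

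In males on ND the lower glycolytic genes Tpi1, Pgk1, Eno1 (enolase) and Ldha did not overlap and were lower in Cyp2b-null libraries. Eno1 was at 129, 89.5 and 88.7 CPM in WT and at 16.5, 84.1 and 61.2 CPM in Cyp2b-null libraries, a log2 difference of -0.92 ± 0.45 (edgeR adjusted p 0.289). All 3 Cyp2b-null libraries lay below the lowest WT library, and Cyp2b-null ND 1 far below the other 2. Ldha was at 637, 507 and 516 CPM in WT and at 35.6, 492 and 339.7 CPM in Cyp2b-null libraries, at -0.94 ± 0.64 (adjusted p 0.424). Without that library the differences were -0.49 ± 0.25 for Eno1 (adjusted p 0.327), -0.41 ± 0.28 for Ldha (0.464), -0.46 ± 0.29 for Tpi1 (0.427) and -0.37 ± 0.16 for Pgk1 (0.274). With HFD in male WT mice Eno1 was at 78.9, 63.7 and 48.7 CPM, below all 3 ND libraries, at -0.68 ± 0.45 (adjusted p 0.867). Gpi1 was at 167, 146 and 167 CPM on ND and at 116, 123 and 90.2 CPM on HFD in the same mice, again without overlap, at -0.54 ± 0.26 (adjusted p 0.777). Pfkfb3, an enzyme that sets the level of the activator of phosphofructokinase, ran from 11.3 to 125 CPM among the 3 male WT ND libraries alone. Pfkl, Pfkfb1, Pkm, Pgam1 and Hk3 overlapped in all 8 comparisons of genotype and diet, as did the glycogenin Gyg. Of these Hk3, a hexokinase of blood cells, lay between 0.809 and 13.5 CPM and Pgam1, a phosphoglycerate mutase, between 3.61 and 21.0 CPM over the 24 libraries.

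The male library Cyp2b-null ND 1 held the highest value of all 12 male libraries for 13 members and the lowest for 15, or 80.0% of the 35, where 70.8% of all genes tested had an extreme there. Against the mean of the other 2 libraries of its group, 9 members were more than 2-fold higher and 15 more than 2-fold lower, whereas those 2 libraries differed by more than 2-fold for 2 members. Gckr was at 1685 CPM there and at 259 and 626 CPM in the other 2, Gapdh at 188 against 34.8 and 24.8 CPM, and Pck2 at 16.7 against 3.33 and 4.38 CPM. Pgk1 was at 3.75 CPM against 27.0 and 20.3, and Ugp2 at 100.3 CPM against 458 and 418. Gys2 and Ppp1r3b lay on the same side of WT in all 3 libraries, as given above. In females WT ND 1 held the lowest value for 11 of 34 members and the highest for 3, or 41.2%, where 30.9% of all genes had an extreme there. Without it the female comparison on ND had 7 of 34 members at an unadjusted p below 0.05 against 8.11% of all genes.

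**Figure D5:**
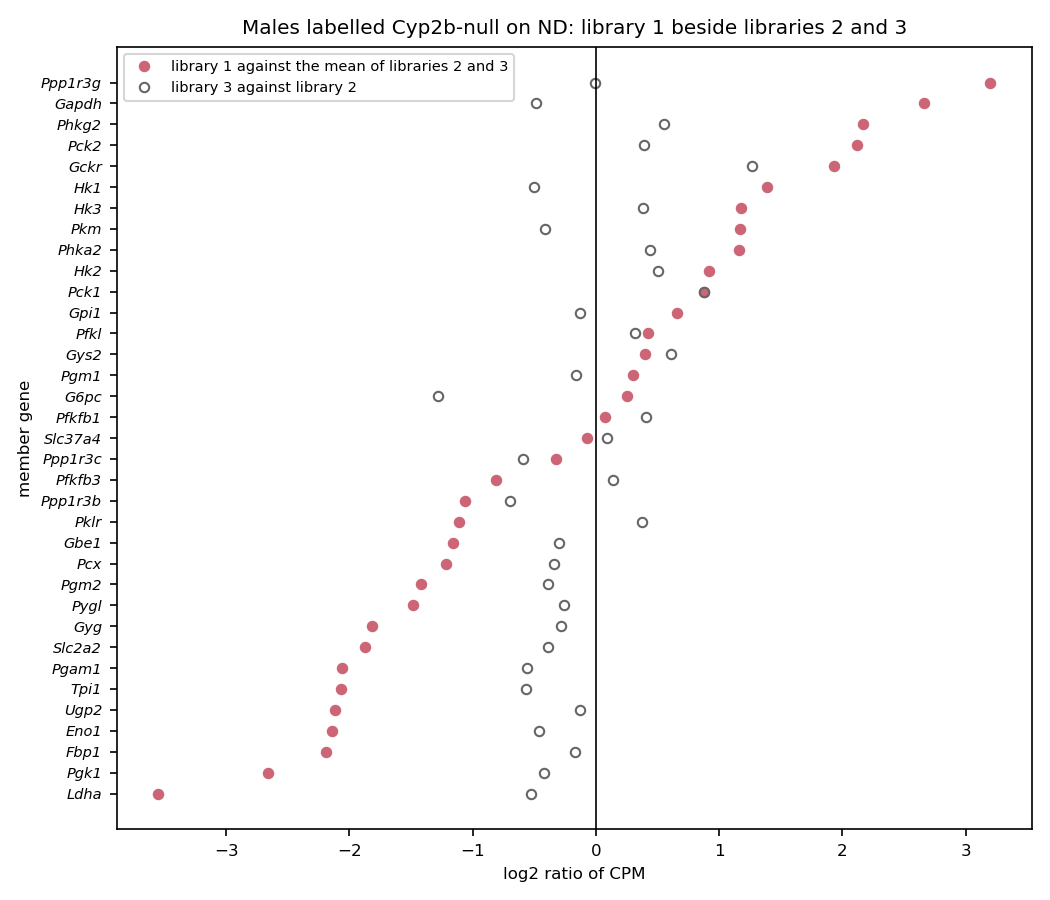
Log2 ratio of CPM for the 35 members in male Cyp2b-null ND libraries, library 1 against the mean of libraries 2 and 3 (filled) and library 3 against library 2 (open). Filled points spread from Ldha at the low end to Ppp1r3g at the high end, and the open points stay within 2-fold for all but Gckr and G6pc.

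A further 83 genes of the pathway were set beside the members: other glycolytic and gluconeogenic enzymes, pyruvate entry, other glycogen genes, the fructose and pentose phosphate branch, and transcription regulators. Of these, 65 were tested in females and 72 in males, and edgeR called none in any comparison. On ND in females Cebpb, a transcription factor that acts on gluconeogenic genes, was at 127, 156 and 90.7 CPM in WT and at 244, 380.0 and 302 CPM in Cyp2b-null libraries, without overlap. Its log2 difference was 1.31 ± 0.30 with an edgeR adjusted p of 0.128, and DESeq2 called it. Pdk1, a kinase that blocks pyruvate dehydrogenase, was at 58.8, 60.9 and 72.2 CPM in WT and at 152, 79.0 and 93.8 CPM in Cyp2b-null libraries, at 0.76 ± 0.26 (adjusted p 0.514).

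In males on ND, Crtc2, a coactivator of cAMP-driven transcription, differed by 0.97 ± 0.36 (edgeR adjusted p 0.221) and Taldo1 (transaldolase) by -0.79 ± 0.30 (adjusted p 0.225). Without Cyp2b-null ND 1 these were 0.37 (0.395) and -0.63 (0.259). On HFD, male Srebf1, a transcription factor of lipid synthesis, was at 228, 394 and 205 CPM in WT and at 483, 489.5 and 718 CPM in Cyp2b-null libraries, without overlap, at 1.03 ± 0.31 (adjusted p 1). Khk, the fructose kinase, was at 344, 367 and 297 CPM in WT and at 427, 565 and 525 CPM in Cyp2b-null libraries, again without overlap, at 0.59 ± 0.23 (adjusted p 1). These 2 and Ppp1r3b were thus higher in the male Cyp2b-null HFD libraries. In females on HFD Foxo1, an insulin-restrained transcription factor, differed by 0.59 ± 0.24 and Ppargc1a, its coactivator, by -0.60 ± 0.29 (adjusted p 1 for each).

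For diet in WT mice, Pfkfb2 in females was at 32.9, 48.9 and 47.9 CPM on ND and at 26.6, 30.0 and 28.0 CPM on HFD, without overlap, at -0.61 ± 0.23 (edgeR adjusted p 1). Irs2, an adaptor of the insulin receptor, differed by 2.10 ± 0.92 (adjusted p 1) and had 82.4 CPM in WT HFD 3 against 4.63 and 17.5 CPM in the other 2 libraries. Male WT mice had Foxo1 at 21.9, 20.9 and 20.8 CPM on ND and at 33.4, 37.4 and 42.0 CPM on HFD, without overlap, at 0.83 ± 0.35 (adjusted p 0.745), and Rpia differed by -0.67 ± 0.29 (adjusted p 0.745). In Cyp2b-null mice Stbd1, a protein that binds glycogen, differed by -0.76 ± 0.26 and Srebf1 by 0.66 ± 0.24 in females (adjusted p 0.963 for each). Male Cyp2b-null mice differed by -0.76 ± 0.23 in Pfkm, the muscle type of phosphofructokinase, and by -0.92 ± 0.36 in Crtc2 (adjusted p 0.434 for each), or by -0.55 (0.536) and -0.32 (0.922) without Cyp2b-null ND 1. The interactions with the smallest p among these genes were Cebpb (-1.05 ± 0.42) and Irs2 (-2.97 ± 1.26) in females, each with an edgeR adjusted p of 1, and Khk (0.76 ± 0.33) and Pgd (1.18 ± 0.51) in males, each with 0.891.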

How the data were processed

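Liver RNA of 24 libraries (8 groups of 3) was sequenced, and the authors deposited 1 table of raw counts per gene symbol for each sex, read here as deposited. The submitters' processing notes name the build GRCm38.p5 and, without versions, the tools GSNAP, Subread, Trimmomatic, FastQC and edgeR; how reads were assigned is not given in the sources used here. Groups were taken from the sample titles. The members and the gene lists were chosen with earlier results of these data known.

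Rows that share a symbol were summed (2 symbols in females and 1806 in males, Hk2 and Eno1 among the members). Date-like symbols, which name no gene, held at most 0.16% of counts. Each table was fitted alone in R 4.3.3 with edgeR 4.0.16 (filterByExpr, TMM, robust quasi-likelihood test, 1 term per group over 12 libraries), with Benjamini-Hochberg adjustment over all genes tested and a call at 0.05. The SE of an edgeR difference was its size divided by the square root of its F statistic. The 95% intervals were built from this SE. CPM used the TMM library sizes, and CPM per kb divided it by the merged exon length of the GRCm38 annotation. In each comparison the text gives library values for up to 5 members with the smallest p among those whose libraries did not overlap (3 for the interaction) and names up to 2 other pathway genes with the smallest p. Further members were described after their values were seen, by role.

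On simulated counts for Cyp2b-null against WT on ND, the test called 24% of genes changed by 1 on the log2 scale and 96% of those changed by 2 among 11554 genes in females, and 11% and 94% among 14546 genes in males. The changed genes were drawn from the more abundant ones. Apart from the set change, each gene had 1 mean for all libraries and a spread drawn toward the common one. No divergent library such as male Cyp2b-null ND 1 was simulated, so these rates do not carry over to scarce or highly variable genes. No 2 libraries of a group agreed within sampling noise, with a chi-square per degree of freedom of 5.56 or more. Same-numbered libraries deviated together (every correlation above 0.1) only between WT ND and WT HFD, at 0.564, 0.139 and 0.279 in females and 0.114, 0.127 and 0.11 in males. The labels do not say what a number marks.

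The alternatives were DESeq2 1.42.0, another scaling (RLE), no filter on low counts, a replicate block, each library left out, the first of duplicated symbols, the compared groups alone and, in females, a term for the 2 sides of the first principal component. Promoters came from RefSeq (GRCm38.p6). A single marker gene of the lists is not reported here and was left out of the sums.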

Additional observations from a re-analysis of the deposited data

How the results depend on the processing

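Genes named by the rule kept their sign in the comparison they were named for under each alternative run. Other members were not all so steady: Phkg2, for Cyp2b-null against WT in males on ND, went from 0.93 ± 0.48 to -0.18 ± 0.18 without Cyp2b-null ND 1. No call was lost since none had been made by edgeR on the full design. The number of members called in place of 0 was as follows. For Cyp2b-null against WT on ND in females it was 2 without the filter on low counts (Gys2 and Ppp1r3b) and 2 by DESeq2. With the compared groups alone it was 2 (Ppp1r3b, edgeR adjusted p 0.0499, and Ppp1r3g), among 21 of 10949 genes called. With each library left out it was 0 to 1, the 1 (Gys2) among 12 of 12254 genes called. In males on ND it was 2 by DESeq2 and 0 to 4 with each library left out. For HFD against ND it was 1 in female WT mice without the filter (Gapdh, edgeR adjusted p 0.0125). In male Cyp2b-null mice it was 1 (Ppp1r3b) without the filter, 1 by DESeq2 and 0 to 1 with each library left out. Leaving out Cyp2b-null ND 1 gave Ppp1r3b an edgeR adjusted p of 0.0178, among 13 of 15139 genes called. Leaving out Cyp2b-null ND 2 gave it 0.0407, among 28 of 15194 genes called. For the interaction it was 1 in females without the filter (Ppp1r3b, adjusted p 0.0012) and 2 in males by DESeq2. Without the filter, genes at near 0 counts enter the estimate of the spread, and the cause of the added calls was not tested. The fit with the replicate block called 0 members in each of the 10 comparisons. Pairing by replicate number changed no member's call, also between WT ND and WT HFD, where same-numbered libraries deviated together.

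Over all genes the number of calls depended more on the setting. For Cyp2b-null against WT on ND it was 15 in females, against 121 without the filter, 72 by DESeq2, 43 with a term for the library sides, 8 with the replicate block and 5 to 12 with a library left out. In males it was 2, against 360 by DESeq2, 35 without the filter, 0 with the compared groups alone, and 7 or 724 without Cyp2b-null ND 1 or 2. On HFD the counts were 2 in females against 12 without the filter, and 0 in males against 15 by DESeq2. For HFD against ND they were 2 in female WT mice against 38 without the filter and 17 by DESeq2, 0 in female Cyp2b-null mice against 30 and 3, 0 in male WT mice against 6 and 69, and 0 in male Cyp2b-null mice against 26 and 110. The interaction gave 0 in females against 23 without the filter and 10 by DESeq2, and 0 in males against 0 and 19. The smaller female libraries limit Hk1, Hk2, Hk3, Pck2, Pgm1 and Gyg, which had few counts per library.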
